A study of Mus musculus with 15 samples.

Results

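The adult alpha and beta hemoglobin genes Hba-a1, Hba-a2, Hbb-bs and Hbb-bt were followed through RNA sequencing of circulating extracellular vesicles (EVs) from 15 mouse libraries. They were chosen by symbol and not by a filter on measured values, although earlier results of these data were known. They are 4 of the 43472 gene symbols counted in each library. All 4 had reads in every library, as did 169 genes in all. The libraries stood for 3 conditions. WT-derived EVs (3 libraries) came from mice with no genetic change given in the labels, which the study's methods describe as C57BL/6. Dystrophic-derived EVs (6 libraries) came from Sgcb-null mice, which lack beta-sarcoglycan, a part of the membrane complex that protects muscle fibers. Hypertrophic-derived EVs (6 libraries) came from mice that the labels call MAGIC F1, a transgene for an engineered Met-activating factor, whereas the study's methods give Mstn-null, the loss of a brake on muscle growth, for these libraries. Only the condition was therefore used. The labels give no treatment. The mice were between 3 and 6 months old, each library pooled the EVs of 2 to 3 mice, and the RNA was preamplified. The labels name serum as the source and the methods name plasma. Nothing in the labels ties a library to particular animals, so the p-values compare libraries and do not measure the spread between animals.

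Hemoglobin, the oxygen carrier of red cells, is assembled from pairs of alpha and beta chains around heme. The alpha genes lie in a cluster on mouse chromosome 11 and the beta genes in a cluster on chromosome 7, and both clusters also hold embryonic genes that are silent in the adult. Globin mRNA is made in erythroblasts and is carried on by reticulocytes, the young red cells that have lost their nucleus but not yet their RNA. In blood fractions, globin transcripts are therefore the best known sign of red cell RNA. In a bulk library, fewer cells or vesicles of a type and less RNA in each of them cannot be told apart.

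In the GENCODE M21 annotation of mm10, Hba-a1 (ENSMUSG00000069919.7) lies at chr11:32283511-32284465 and Hba-a2 (ENSMUSG00000069917.7) at chr11:32296489-32297298, both on the plus strand. Hbb-bs (ENSMUSG00000052305.6) lies at chr7:103826534-103828096 and Hbb-bt (ENSMUSG00000073940.3) at chr7:103812524-103813996, both on the minus strand. Each has 3 exons in the transcript used here, and no other annotated gene overlaps any of them.

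The members of each pair are close to identical, which matters for reads of 50 bases. The coding sequences of Hba-a1 and Hba-a2 are 426 bases long and differ at 1 base, C381T, counted from 1 at the start codon with the base of Hba-a1 first. The coding sequences of Hbb-bs and Hbb-bt are 441 bases long and also differ at 1 base, C417T, with the base of Hbb-bs first. Neither difference changes an amino acid, so each pair encodes 1 protein. The stretches below are the coding bases within reach of a 50-base read that covers the differing base, which is in capitals.
Hba-a1, coding bases 332 to 426: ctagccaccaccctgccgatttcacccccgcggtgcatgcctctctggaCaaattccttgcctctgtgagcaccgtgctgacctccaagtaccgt
Hba-a2, coding bases 332 to 426: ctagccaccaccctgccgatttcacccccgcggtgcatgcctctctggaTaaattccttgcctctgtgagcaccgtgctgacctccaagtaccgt
Hbb-bs, coding bases 368 to 441: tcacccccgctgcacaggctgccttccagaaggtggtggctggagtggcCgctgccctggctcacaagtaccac
Hbb-bt, coding bases 368 to 441: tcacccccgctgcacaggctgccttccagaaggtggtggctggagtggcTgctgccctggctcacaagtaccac

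Of the 489 windows of 50 bases along the Hba-a1 transcript, 50 (10.2%) occurred in the transcripts or promoters of no other gene, and all 50 covered the differing coding base. In Hba-a2, 66 of 502 windows (13.1%) were found in no other gene, 50 of them over that base. The beta genes were easier to tell apart, with 198 of 579 windows (34.2%) for Hbb-bs and 200 of 581 (34.4%) for Hbb-bt, of which 50 in each covered the coding difference. Every shared window was shared with the other member of the pair alone. The search used annotated transcripts and promoters, not the whole genome. The deposited tables keep alignments that were not unique in a line of their own, outside the genes, and between 0.727 and 1.71 such alignments were listed for each read on a gene. How many of them belonged to hemoglobin genes is not known from the tables, so a member's count may leave out reads that match its pair equally well.

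The promoters are shown as a description of sequence, and their part in the values of these libraries was not tested. They are the 250 bases before the RefSeq start in GRCm38.p6, each read in the direction of its gene, with capitals for matches on either strand to GATAA (bound by GATA factors), CACCC (the box bound by Klf1 and related factors), CCAAT and TATAA.
Hba-a1 promoter, chr11:32283422-32283671, plus strand: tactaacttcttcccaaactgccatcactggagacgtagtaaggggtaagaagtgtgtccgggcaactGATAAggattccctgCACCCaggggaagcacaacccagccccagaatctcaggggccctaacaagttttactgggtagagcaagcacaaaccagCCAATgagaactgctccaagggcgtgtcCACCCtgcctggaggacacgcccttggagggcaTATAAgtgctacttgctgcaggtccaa
Hbb-bs promoter, chr7:103827929-103828178, minus strand: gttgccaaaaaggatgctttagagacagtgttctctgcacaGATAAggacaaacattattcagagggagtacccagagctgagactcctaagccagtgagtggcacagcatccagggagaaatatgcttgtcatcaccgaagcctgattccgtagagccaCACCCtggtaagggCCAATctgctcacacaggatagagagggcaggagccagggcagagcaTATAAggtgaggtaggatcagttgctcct
Hbb-bt promoter, chr7:103813924-103814173, minus strand: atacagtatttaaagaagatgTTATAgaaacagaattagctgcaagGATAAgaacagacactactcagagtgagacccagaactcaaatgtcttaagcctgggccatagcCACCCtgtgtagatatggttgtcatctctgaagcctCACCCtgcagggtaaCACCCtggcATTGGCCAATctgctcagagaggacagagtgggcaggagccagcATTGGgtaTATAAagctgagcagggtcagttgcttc

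All 4 promoters held all 4 motifs. Among the 32851 promoters of the RefSeq table, GATAA was present in 22.6%, CACCC in 52.0%, CCAAT in 33.8% and TATAA in 22.8%, and all 4 motifs together in 0.968%. The Hba-a2 promoter was identical to that of Hba-a1 over the 225 bases that end with the TATA box, so it is not printed. In Hbb-bt, CCAAT matched at 3 places and CACCC at 3, compared with 1 of each in Hbb-bs. A match of 5 letters is a description of the sequence and does not show that a factor binds there.

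Between 27227 (WT replicate 1) and 32563362 (dystrophic replicate 6) reads per library were counted on genes. Counts are given as CPM, that is, scaled to the total on genes of each library. At the lowest depth, the 258 reads of Hbb-bt in WT replicate 1 gave 9476 CPM with a 95% Wilson interval of 8392 to 10698, and at the highest depth its 191076 reads gave 5868 CPM (interval 5842 to 5894). Such intervals cover counting error only, since copies made in the preamplification are not independent molecules. In dystrophic replicates 4, 5 and 6 and in replicates 1, 2 and 3 of the hypertrophic condition, the title carried another number than the count table did, crosswise between the conditions. The main comparisons of the 4 genes, their ratios, their share and the number of genes called were therefore repeated after swapping these libraries between the conditions, and after dropping them. The lists of other genes were compared under the labels only.

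Together the 4 genes took 6.77% ± 3.48 (SD, n = 15) of the reads on genes, with 2.23% in WT replicate 2 as the lowest and 15.3% in dystrophic replicate 4 as the highest share. The WT-derived libraries held 8.42%, 2.23% and 6.14%. The dystrophic-derived libraries ranged from 4.49% to 15.3% (median 7.35%) and the hypertrophic-derived ones from 2.85% to 8.11% (median 4.68%). The 2 highest shares, 15.3% and 12.3% in dystrophic replicates 4 and 2, lay above all other libraries, and the other dystrophic-derived libraries fell inside the range of the remaining conditions. Group means were 5.60% ± 3.13 (SD, n = 3) in WT, 8.88% ± 4.09 (SD, n = 6) in dystrophic and 5.25% ± 2.07 (SD, n = 6) in hypertrophic. As a sum over chosen genes, the share was not tested. With the 37 mitochondrially encoded genes left out of the total, the means were 7.07%, 10.1% and 6.01% in the same order. With the crossed libraries exchanged, they were 6.72% in dystrophic and 7.41% in hypertrophic, the opposite order of these conditions.

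**Figure D1:**
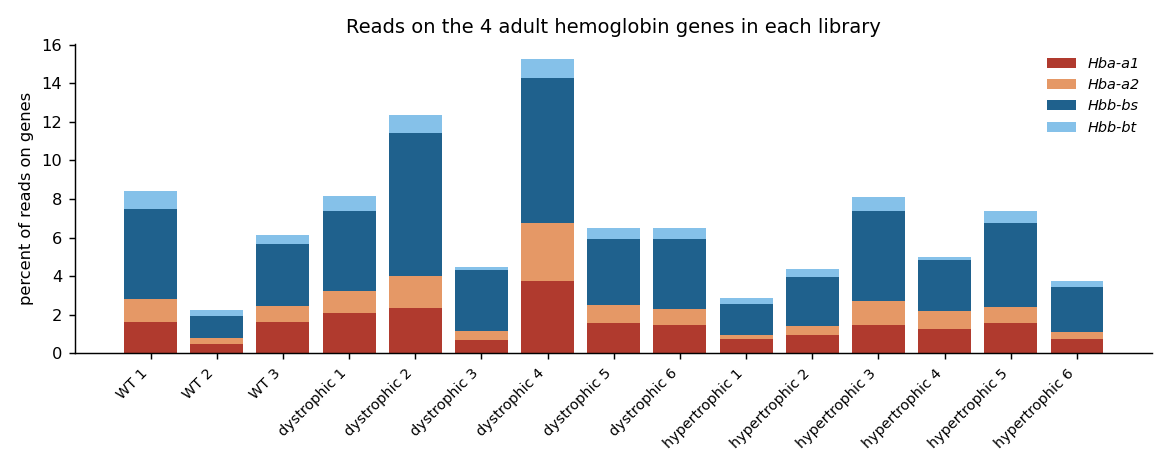
Percent of the reads on genes taken by each of the 4 adult hemoglobin genes (stacked colors) in each of the 15 libraries (x axis). The lowest stack is 2.23% (WT replicate 2) and the highest 15.3% (dystrophic replicate 4), and Hbb-bs makes up most of each stack except that of dystrophic replicate 4, where it takes 49.2%.

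Within these reads the makeup was more even than the total. Hbb-bs accounted for 56.1% ± 5.29 (SD, n = 15) of the reads on the 4 genes, Hba-a1 for 22.3% ± 3.23, Hba-a2 for 13.2% ± 3.04 and Hbb-bt for 8.37% ± 2.59. The lowest share of Hbb-bs was 49.2% in dystrophic replicate 4 and the highest 69.9% in dystrophic replicate 3. Hbb-bt took only 2.96% in hypertrophic replicate 4 and 3.88% in dystrophic replicate 3, against 6.48% to 13.5% elsewhere. These shares are of reads and are not corrected for length.

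The first alpha gene, Hba-a1, was at 16234, 4981 and 16339 CPM in the WT-derived libraries. In dystrophic-derived libraries it ranged from 7020 to 37745 CPM (median 18194), and in hypertrophic-derived ones from 7503 to 15971 CPM (median 11108). All 6 hypertrophic-derived libraries lay below the dystrophic median, yet the groups overlapped in each of the 3 comparisons. Means were 12518 ± 6527 (SD, n = 3), 19967 ± 10420 (SD, n = 6) and 11375 ± 3701 CPM (SD, n = 6) in WT, dystrophic and hypertrophic.

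Hba-a2, which encodes the same alpha chain, was at 12084, 2971 and 8160 CPM in WT. It ranged from 4726 to 29888 CPM in dystrophic-derived libraries (median 10534) and from 2319 to 12176 CPM in hypertrophic-derived ones (median 6450). The highest value was again that of dystrophic replicate 4, and the lowest that of hypertrophic replicate 1. The groups overlapped in all 3 comparisons, with means of 7738 ± 4571, 13310 ± 8987 and 6732 ± 3731 CPM (SD) in WT, dystrophic and hypertrophic.

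Hbb-bs, one of the adult beta genes, was at 46424, 11334 and 32036 CPM in WT. Its range was 31371 to 75123 CPM in dystrophic-derived libraries (median 39002) and 15932 to 46535 CPM in hypertrophic-derived ones (median 25937). Of the hypertrophic-derived libraries, 4 of 6 lay below every dystrophic-derived library, while replicates 3 and 5 lay above the dystrophic median. Means were 29932 ± 17640 (SD, n = 3), 48814 ± 20317 (SD, n = 6) and 30212 ± 12164 CPM (SD, n = 6).

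Hbb-bt, the other adult beta gene, was at 9476, 3001 and 4851 CPM in WT. It ranged from 1740 to 9897 CPM in dystrophic-derived libraries (median 6853) and from 1479 to 7401 CPM in hypertrophic-derived ones (median 3620). Its lowest values came from hypertrophic replicate 4 and dystrophic replicate 3, and the groups overlapped in all 3 comparisons. Means were 5776 ± 3335, 6737 ± 2944 and 4137 ± 2189 CPM (SD) in WT, dystrophic and hypertrophic.

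**Figure D2:**
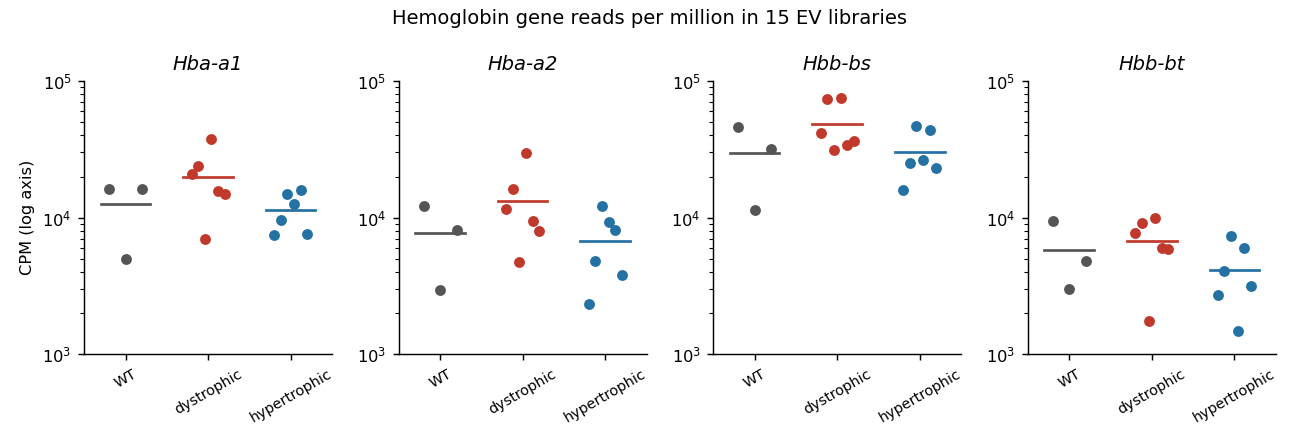
CPM (log axis) of each hemoglobin gene in the 3 WT-derived, 6 dystrophic-derived and 6 hypertrophic-derived libraries (x axis). Each point is 1 library and each line the mean of a condition. The conditions overlap for all 4 genes, and the highest value of each gene is that of a dystrophic-derived library.

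The question for the conditions was whether muscle wasting or growth goes with a change in the RNA of circulating EVs. edgeR's quasi-likelihood test with Benjamini-Hochberg adjustment was run on 6887 genes. Hbb-bs fell in hypertrophic-derived compared with dystrophic-derived EVs by 1.01 on the log2 scale, to a level 2.02-fold lower (95% interval of the log2 change −1.40 to −0.62, edgeR adjusted p = 0.00306). It was the only gene called in this comparison, where 0.0145% of all genes passed, and 1 of the 4 hemoglobin genes. For the other 3 genes the log2 fold changes were −1.21 for Hba-a1 (standard error 0.31), −1.38 for Hba-a2 (standard error 0.39) and −1.03 for Hbb-bt (standard error 0.49), and their adjusted p-values from edgeR were 0.123, 0.123 and 0.317. The interval of Hbb-bs used edgeR's standard error of 0.20, from a fit that shares its estimate of the spread between genes. The SD of log2 CPM of Hbb-bs, without TMM, was 0.57 over the dystrophic-derived and 0.59 over the hypertrophic-derived libraries. DESeq2 gave a standard error of 0.91. The call of Hbb-bs did not hold under every test. An exact two-sided permutation test of its log2 CPM, over 6 against 6 libraries and without TMM, gave a difference of −0.69 and an unadjusted p = 0.0693 (the smallest possible is 0.00216), and DESeq2, which called 5.17% of the 6242 genes it gave an adjusted p, gave −0.74 with an adjusted p of 0.9999. The same exact test gave unadjusted p-values of 0.108 for Hba-a1, 0.106 for Hba-a2 and 0.195 for Hbb-bt.

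The call also depended on which libraries were used. Leaving out 1 library at a time, it was lost without dystrophic replicate 1 (adjusted p = 0.206 from edgeR), 2 (0.151), 4 (0.111) or 5 (0.103) and without hypertrophic replicate 1 (0.190) or 6 (0.119), and it held in the other 9 fits. With the 6 crossed libraries exchanged, the log2 fold change turned to 0.12 (adjusted p = 0.9997 from edgeR), and with only the 9 matching libraries it was −1.03 (adjusted p = 0.726 from edgeR). Within the lower title numbers alone, 3 libraries a condition, it was −0.63 (adjusted p = 0.599 from edgeR), and within the higher ones −1.36 (adjusted p = 7.9e-05 from edgeR). Hba-a1 passed the threshold within the higher title numbers (−1.65, adjusted p = 0.0249 from edgeR), and also without WT replicate 1 (−1.22, adjusted p = 0.0145 from edgeR) and without dystrophic replicate 3 (−1.42, adjusted p = 0.0236 from edgeR).

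Between dystrophic-derived and WT-derived EVs, 0 of the 4 genes passed edgeR's threshold, which 0.0145% of all genes passed. The log2 fold changes were 0.74 for Hba-a1, 0.90 for Hba-a2, 0.80 for Hbb-bs and 0.43 for Hbb-bt, and at an unadjusted p under 0.05, which 2.02% of all genes had, edgeR counted 1 of the 4, Hbb-bs (unadjusted p = 0.00151 and adjusted p = 0.433 from edgeR). DESeq2 called 0 of them and 21.1% of the 6242 genes. Leaving out 1 library moved Hba-a1 between 0.34 (without WT replicate 2) and 1.35 (without WT replicate 3), Hba-a2 between 0.55 (without dystrophic replicate 4) and 1.27 (without WT replicate 3), Hbb-bs between 0.40 (without WT replicate 2) and 1.19 (without WT replicate 3), and Hbb-bt between 0.16 (without WT replicate 2) and 0.70 (without hypertrophic replicate 1). Between hypertrophic-derived and WT-derived EVs, the values were −0.47, −0.49, −0.21 and −0.60 in the same gene order. Neither edgeR, with 0.029% of all genes called, nor DESeq2, with 24.5% of its 6242 genes called, called a hemoglobin gene there, and 0 of the 4 had an unadjusted p under 0.05 in edgeR, as 8.02% of all genes did. With 3 WT-derived libraries that differed by up to 4.10-fold in Hbb-bs, small differences from WT were not detectable. Both comparisons share the WT-derived libraries.

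The scale affects these values. The median log2 fold change of all 6887 genes was 1.38 for dystrophic against WT, 0.66 for hypertrophic against WT and −0.52 for hypertrophic against dystrophic with TMM, and 1.57, 1.02 and −0.37 with library size alone. Relative to that median, Hbb-bs was at −0.58, −0.87 and −0.49 with TMM and at −0.85, −0.99 and −0.33 with library size alone, and the other 3 hemoglobin genes also lay below the median in every comparison under both scalings. The positive values of all 4 genes in dystrophic-derived EVs against WT were thus smaller than that of the median gene. Against WT, the value of Hbb-bs in hypertrophic-derived EVs changed sign, to 0.03, with library size alone.

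**Figure D3:**
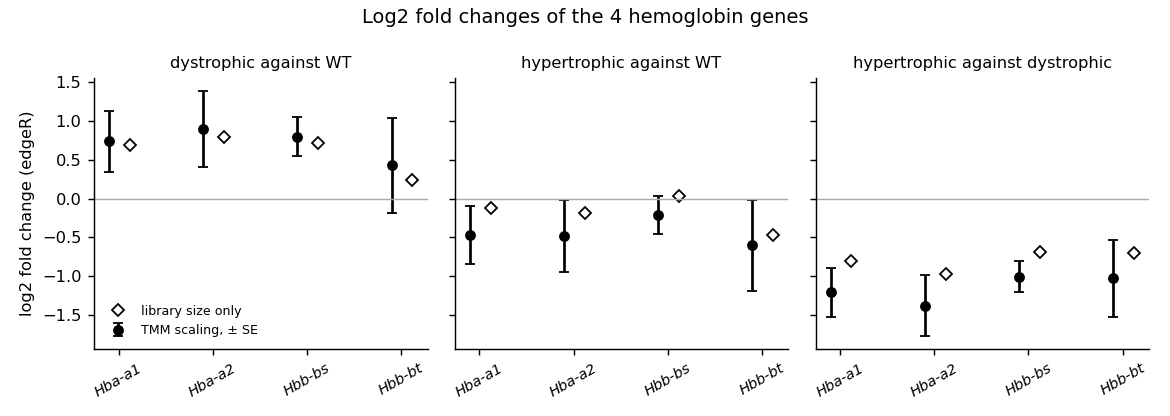
Log2 fold changes (y axis) of the 4 hemoglobin genes (x axis) in the 3 comparisons (panels), fitted with edgeR. Filled circles with bars are the values with TMM scaling ± standard error, and open diamonds are those with library size alone. In hypertrophic against dystrophic, all 4 circles lie between −1.38 and −1.01 and all 4 diamonds between −0.98 and −0.69.

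Hemoglobin holds alpha and beta chains in equal number, and the ratio of their transcripts was taken within each library. The count ratio of Hba-a1 plus Hba-a2 to Hbb-bs plus Hbb-bt was 0.507, 0.555 and 0.664 in WT. It ran from 0.355 to 0.795 in dystrophic-derived libraries (median 0.582) and from 0.431 to 0.779 in hypertrophic-derived ones (median 0.497). It was below 1 in all 15 libraries, and the 3 conditions overlapped. In exact two-sided permutation tests of the log2 ratio no difference between conditions passed the threshold, with values of −0.04 (dystrophic against WT, p = 0.929), −0.12 (hypertrophic against WT, p = 0.548) and −0.08 (hypertrophic against dystrophic, p = 0.682). After adjustment over the 9 ratio comparisons, these exact permutation p-values were 0.965, 0.918 and 0.918. With 3 against 6 libraries the smallest possible p is 0.0238.

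The direction of the alpha to beta ratio depends on the length used. The deposited tables keep non-unique alignments outside the genes. Fewer windows were found in no other gene for the alpha genes (10.2% and 13.1%) than for the beta genes (34.2% and 34.4%). The count ratio and the ratio per kilobase make no correction for this and may be too low. Per kilobase of exon sequence (538 to 630 bases a gene), the ratio was 0.647 ± 0.142 (SD, n = 15) and again below 1 in every library. If only reads that fit 1 gene were counted, the length to divide by is the number of windows found in no other gene, and the ratio became 2.02 ± 0.434 (SD, n = 15), above 1 in every library, from 1.27 in dystrophic replicate 3 to 2.82 in dystrophic replicate 4. Per kilobase, the order of the levels in 14 of 15 libraries was Hbb-bs, Hba-a1, Hba-a2, Hbb-bt, and in hypertrophic replicate 1 Hbb-bt was above Hba-a2. Per window, Hba-a1 had the highest level in 14 of 15 libraries, and dystrophic replicate 3 was the exception, with Hbb-bs above it. Hbb-bs was the higher of the beta genes on both scales in all 15 libraries, and Hba-a1 the higher of the alpha genes.

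**Figure D4:**
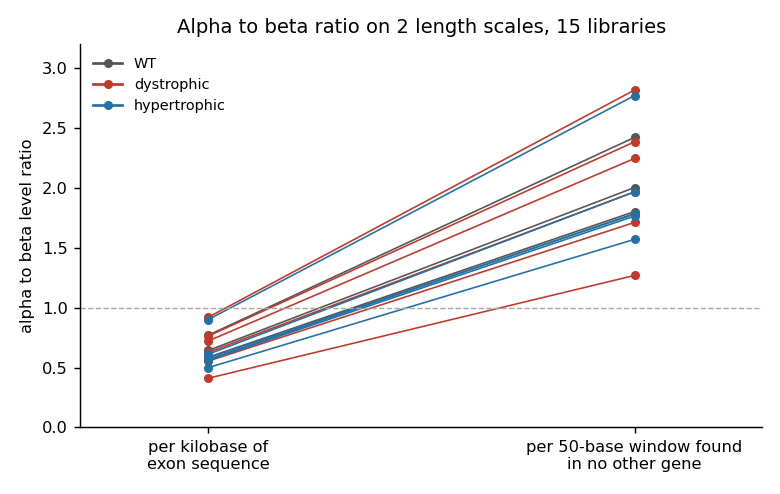
Ratio of the alpha to the beta level (y axis) in each of the 15 libraries, joined by a line between both length scales (x axis). Every library is below 1 per kilobase of exon sequence, from 0.410 to 0.919, and above 1 per 50-base window found in no other gene, from 1.27 to 2.82.

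Hba-a1 had more reads than Hba-a2 in all 15 libraries. The count ratio was 1.34, 1.68 and 2.002 in WT, 1.26 to 1.88 in dystrophic-derived (median 1.57) and 1.23 to 3.23 in hypertrophic-derived libraries (median 1.98). The highest value came from hypertrophic replicate 1, where Hba-a1 made up 76.4% (95% Wilson interval 76.0 to 76.8) of the reads on both genes. The conditions overlapped, and the differences in the log2 ratio were −0.07 (dystrophic against WT, exact permutation p = 0.714), 0.18 (hypertrophic against WT, exact permutation p = 0.548) and 0.25 (hypertrophic against dystrophic, exact permutation p = 0.301). The adjusted p-values over the 9 ratio comparisons, from the exact permutation tests, were 0.918, 0.918 and 0.903.

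Between the beta genes the count ratio of Hbb-bs to Hbb-bt was 4.90, 3.78 and 6.60 in WT. In dystrophic-derived libraries it ran from 5.39 to 18.0 (median 6.90), and in hypertrophic-derived ones from 5.82 to 18.0 (median 6.81). Dystrophic replicate 3 and hypertrophic replicate 4 each reached 18.0, while the remaining 13 libraries lay between 3.78 and 8.06. These 2 libraries held 4665 and 667 reads of Hbb-bt. The log2 ratio was higher by 0.64 in dystrophic and by 0.65 in hypertrophic than in WT (exact two-sided permutation p = 0.119 and 0.0952, both 0.536 adjusted over the 9 ratio comparisons), and the differences did not pass the threshold. Between hypertrophic and dystrophic it differed by 0.01 (exact permutation p = 0.965).

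**Figure D5:**
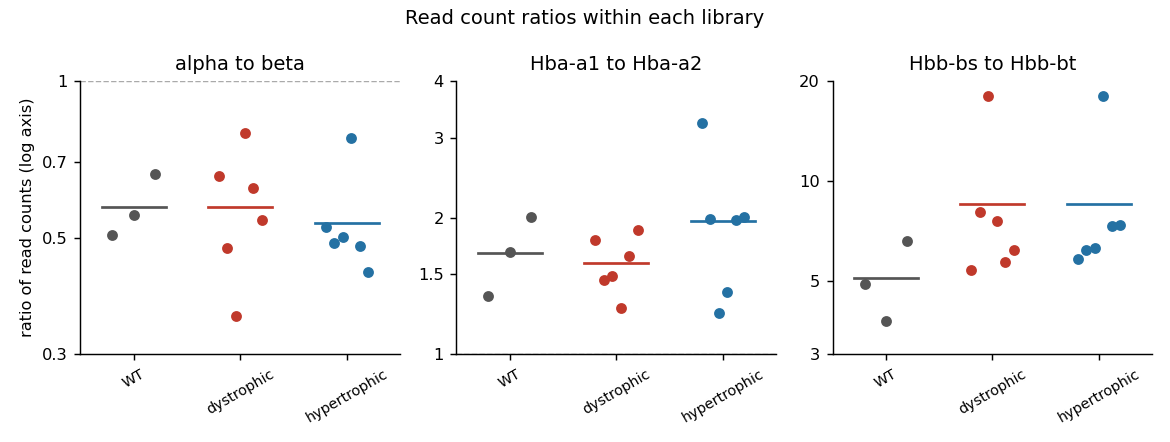
Ratio of read counts within each library (log axis) for alpha to beta, Hba-a1 to Hba-a2 and Hbb-bs to Hbb-bt (panels) in the 3 conditions (x axis). Each point is 1 library, each line the mean of a condition, and the dashed line marks 1. All alpha to beta points lie below 1, and in the beta panel 1 dystrophic-derived and 1 hypertrophic-derived library stand at 18.0.

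From the read numbers alone, the log2 ratios would have an SD of at most 0.06 for alpha to beta, 0.11 for Hba-a1 to Hba-a2 and 0.10 for Hbb-bs to Hbb-bt, whereas the SDs over 15 libraries were 0.31, 0.36 and 0.61. The preamplification adds noise that these counting SDs leave out.

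The 4 genes varied together from library to library. Over the 15 libraries the log2 CPM of each pair had a Pearson r from 0.70 (Hba-a2 and Hbb-bt) to 0.94 (Hba-a1 and Hba-a2) and a Spearman rho from 0.82 to 0.90. All 6 pairs passed the permutation test after adjustment over the 10 relations computed, the 6 pairs and the 4 genes against depth (adjusted p at most 0.00572 for r and 0.00045 for rho). Without the 2 libraries farthest from the median, r was between 0.65 and 0.91 and the adjusted permutation p at most 0.0285. Within the 6 dystrophic-derived libraries r ran from 0.72 to 0.98. Within the 6 hypertrophic-derived ones it was 0.92 for Hba-a1 and Hba-a2 but 0.44 for Hba-a1 and Hbb-bt and 0.32 for Hba-a2 and Hbb-bt, and none of the 6 passed the exact permutation test after adjustment (lowest adjusted p = 0.0694). The library total and the depth are shared by the genes at each of these points. Pairs of other genes, and other genes against depth, were not tested in this way. No share over all genes therefore stands beside these counts. Against the log10 of the reads on genes, Pearson's r was −0.36 for Hba-a1, −0.42 for Hba-a2, −0.37 for Hbb-bs and −0.25 for Hbb-bt, with adjusted permutation p-values from 0.172 to 0.380. Spearman's rho was −0.60, −0.58, −0.53 and −0.36 (adjusted permutation p = 0.0298, 0.0314, 0.0513 and 0.182), so by rank the 2 alpha genes were lower in deeper libraries. Without the shallowest and the deepest library, r was −0.56, −0.53, −0.49 and −0.14, with adjusted permutation p-values of 0.0637 or more. CPM is divided by these same reads on genes, so both sides of the relation to depth share them. The part of depth in the other results was not tested.

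The spread of the 4 genes between libraries was small beside that of most genes, many of which had few reads. The SD of log2 CPM over the 15 libraries was 0.73 for Hbb-bs, 0.76 for Hba-a1, 0.87 for Hbb-bt and 0.97 for Hba-a2, against a median of 3.47 for the 6887 genes tested and of 1.01 for the 169 genes with reads in every library. Among those 169, they ranked 33rd, 38th, 59th and 78th from the lowest SD.

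Genes whose pattern resembled that of hemoglobin were sought among 672 genes with reads in at least 12 libraries, by Spearman's rho of log2 CPM over the 15 libraries. For Hbb-bs the most alike was Alas2 (rho = 0.79), the erythroid enzyme that starts heme synthesis, followed by Fam220a (0.66), Sh3glb1 (0.62), Tbx21 (0.58) and 4933426M11Rik (0.52). For Hba-a1 these were Ccni (0.64), Tbx21 (0.63), Alas2 (0.63), H3f3b (0.59) and Map1lc3b (0.59). Tbx21 (median 2.49 CPM, reads in 14 libraries) and 4933426M11Rik (median 1.39 CPM, reads in 12) lay near the floor. As the highest of 672 values over 15 libraries, these rho values were not tested. Alas2 was at 3930, 478 and 1568 CPM in WT, at 2203 to 4592 CPM in dystrophic-derived (median 3178) and at 701 to 7058 CPM in hypertrophic-derived libraries (median 1313). For each read of Alas2 there were 11.5 (hypertrophic replicate 3) to 71.4 (hypertrophic replicate 4) reads on the 4 hemoglobin genes, so the pair varied between libraries as well.

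The other globin genes had few reads or none. The embryonic genes Hba-x, Hbb-y, Hbb-bh0, Hbb-bh1 and Hbb-bh2, the theta-like gene Hbq1b and neuroglobin (Ngb) had 0 reads in all 15 libraries, which in the deepest library allows up to 0.0921 CPM. Hbq1a had 29 reads in dystrophic replicate 5 (10.04 CPM) and none elsewhere. Myoglobin (Mb), the oxygen store of muscle, had reads in 5 libraries, up to 108 CPM, and cytoglobin (Cygb) in 8, up to 261 CPM. The symbols Hbb-b1 and Hbb-b2, used for the beta genes of other mouse strains, and Ahsp, the chaperone of free alpha chains, were not among the gene symbols counted.

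Of the chaperone and heme synthesis list, 9 of 12 genes in the tables passed the filter on low counts, and edgeR called 0 in either direction in all 3 comparisons (0 also at an unadjusted p under 0.05). Over all genes edgeR called 0.0145% in dystrophic against WT, 0.029% in hypertrophic against WT and 0.0145% in hypertrophic against dystrophic, and 2.02%, 8.02% and 12% had an unadjusted p under 0.05. The list's median log2 fold change from dystrophic to hypertrophic was −0.50, beside −0.52 for all genes, and Alas2 itself was at −0.85 (standard error 0.68, adjusted p = 0.9998 from edgeR). Fech, which inserts iron into heme, had reads in 13 libraries and means of 322 ± 325, 742 ± 510 and 232 ± 230 CPM (SD) in WT, dystrophic and hypertrophic. Slc25a37, the mitochondrial iron importer of red cell precursors, had reads in 8 libraries, up to 404 CPM.

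Of the 12 regulators of globin transcription, 9 were tested and edgeR called 0, with 1 at an unadjusted p under 0.05 in hypertrophic against dystrophic, where 12% of all genes had one, and 0 in the other comparisons. Their median log2 fold change between hypertrophic-derived and dystrophic-derived EVs was −0.71. Gata1, the erythroid master regulator, had reads in 6 libraries, up to 190 CPM, and Klf1, the factor of the CACCC box, had 0 reads in all 15. Of the 6 hemoglobin and heme clearance genes, 3 were tested and edgeR called 0, with 1 at an unadjusted p under 0.05 in each comparison with hypertrophic-derived EVs (8.02% of all genes against WT and 12% against dystrophic) and a median of 0.32 against dystrophic. Blvrb, a heme-breakdown enzyme abundant in red cells, had reads in 9 libraries, up to 940 CPM.

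Markers of platelets and other cells were summed beside hemoglobin. The 12 platelet markers, all in the tables, summed to 20417 to 32174 CPM in WT, 9789 to 21839 in dystrophic and 16487 to 35662 in hypertrophic. Their mean was lowest in the dystrophic condition (15546 CPM, against 27359 in WT and 27793 in hypertrophic), which had the highest mean of hemoglobin under the labels. With the crossed libraries exchanged, the mean hemoglobin share was 6.72% in dystrophic and 7.41% in hypertrophic. The platelet sums were not recomputed with that exchange. Pf4 and Ppbp weighed most in the platelet sum, with means in WT, dystrophic and hypertrophic of 11208, 5329 and 6133 CPM and of 11086, 6964 and 16101 CPM. The list did not move as one. By edgeR's log2 fold change, 3 of the 12 were higher in dystrophic than in WT, and 9 of the 12 were higher in hypertrophic than in dystrophic. The 16 red cell and reticulocyte markers in the tables, hemoglobin not included, summed to 845 to 1207 CPM in WT, 746 to 4315 in dystrophic and 1278 to 3925 in hypertrophic, with means of 987, 2110 and 2045 CPM. Of these, Bpgm was in all 15 libraries and the band 3 anion exchanger Slc4a1 in 10, and Rhag and Kel had 0 reads. The 6 liver markers summed to at most 65.8, 156 and 2181 CPM in WT, dystrophic and hypertrophic. The neutrophil, B cell, T cell, monocyte and skeletal muscle lists each summed to at most 3432 CPM in any library. The EV surface markers Cd9, Cd63 and Cd81 together ranged from 3924 to 33774 CPM. The part of these other cells in the hemoglobin values was not tested.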

How the data were processed

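RNA of circulating EVs was sequenced in 15 libraries (3 WT, 6 dystrophic, 6 hypertrophic) as single reads of 50 bases. The deposited values are counts, whole numbers of reads per gene symbol, which the authors made with TopHat alignment to mm10 and, per the labels, HTSeq; they are not normalized. The 5 summary lines of each table, 57.9% to 99.2% of its total, were left out. Libraries were grouped by their labels. CPM used all reads on genes, and a count of 0 was read as up to 3 counts.

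Conditions were compared with edgeR 4.0.16 (R 4.3.3; TMM, filterByExpr, quasi-likelihood fit to all 15 libraries, standard errors from the F statistic), Benjamini-Hochberg adjusted over all genes at 0.05, and checked with DESeq2 1.42.0. The edgeR procedure and permutation tests were tried on simulated data. The simulated counts varied less between libraries than these data, and the permutation test of groups was tried only with 6 against 6 normal values. These trials do not show how the tests perform at the spread of these data or with 3 WT libraries. Ratios used counts + 0.5 and exact two-sided permutation tests. Correlations used log2 CPM (prior count 2) and 100000 permutations. Exact tests within 6 libraries enumerated all orders. No 2 libraries held the same counts, differing in at least 1320 genes. Positions and transcripts came from GENCODE M21, clipped to the RefSeq gene span for lengths and windows, and promoters from RefSeq. The genes, lists and tests were chosen with earlier results of these data known. Named genes were the 4 members, other globin genes, 7 fixed pathway genes, and the 5 genes most alike to Hba-a1 and to Hbb-bs; genes of the marker lists named beside them were chosen after their values were seen.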

Additional observations from a re-analysis of the deposited data

Results flagged for a closer look

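In the 6 dystrophic-derived and 6 hypertrophic-derived libraries, the highest and the lowest value of each gene's CPM and of each ratio were set against the others by the gap to the nearest value as a share of the whole range. Of 14 groups examined, 3 had a library that stood apart. By chance the cutoff would flag about 1 in 20 independent groups of normal values. These groups share the same counts, and all 3 flags came from dystrophic replicate 3 and hypertrophic replicate 4, so no excess over chance was shown. Dystrophic replicate 3 had a count ratio of Hbb-bs to Hbb-bt of 18.0, and hypertrophic replicate 4 had 18.0 as well, both far above the other libraries of their condition. Hypertrophic replicate 4 also had the highest alpha to beta ratio of its condition, 0.779. Hypertrophic replicate 4 held 451013 reads on genes, and dystrophic replicate 3 held 2680782. No reason for these values was tested.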

How the results depend on the processing

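Of the 148 values of the 12 log2 fold changes under other settings, libraries left out apart, 128 kept their direction and their side of the threshold, and 14 reversed. All but 5 of these 14 came from exchanging the 6 crossed libraries, which gave −0.043 for Hbb-bt in dystrophic against WT, 0.42 (Hba-a1), 0.57 (Hba-a2), 0.44 (Hbb-bs) and 0.047 (Hbb-bt) in hypertrophic against WT, and 0.36, 0.45, 0.12 and 0.090 in hypertrophic against dystrophic. The other 5 were Hbb-bs in hypertrophic against WT, at 0.092 with DESeq2, 0.027 without TMM, 0.063 with no filter beyond 1 read, 0.067 in the lower title numbers and 0.14 in log2 CPM. The call of Hbb-bs in hypertrophic against dystrophic was lost at −0.74 (DESeq2), −1.06 (no filter beyond 1 read), −1.03 (9 matching libraries), −0.63 (lower title numbers) and −0.69 (exact permutation test), and Hba-a1 gained a call at −1.65 (higher title numbers). TMMwsp, the fits within the title numbers and the exact tests of log2 CPM were chosen after seeing the data. The cause was not tested.

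Leaving out 1 library at a time moved Hba-a1 in hypertrophic against WT between −0.87 and 0.13, Hbb-bs there between −0.59 and 0.21, and in hypertrophic against dystrophic Hba-a1 between −1.42 and −0.99 and Hbb-bs between −1.21 and −0.88. Against WT, Hba-a1 changed sign without WT replicate 3, and Hbb-bs without WT replicate 3, dystrophic replicate 1, 2 or 5, or hypertrophic replicate 1 or 6. Log2 ratios moved between −0.14 and 0.094 (alpha to beta, dystrophic against WT), −0.22 and 0.018 (alpha to beta, hypertrophic against dystrophic), −0.22 and 0.069 (Hba-a1 to Hba-a2, dystrophic against WT) and −0.23 and 0.26 (Hbb-bs to Hbb-bt, hypertrophic against dystrophic). The first changed sign without WT replicate 3 or dystrophic replicate 2 or 3, the second without dystrophic replicate 4, the third without WT replicate 3, and the fourth without dystrophic replicate 1, 5 or 6 or hypertrophic replicate 4.

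Among the log2 ratios, none of which passed a test, the alpha to beta difference turned to 0.066 with medians (dystrophic against WT), to 0.053 with libraries exchanged (hypertrophic against WT), and in hypertrophic against dystrophic to 0.26 (exchanged), 0.18 (9 matching libraries) and 0.072 (lower title numbers). Hba-a1 to Hba-a2 turned to 0.10 in dystrophic against WT and −0.087 in hypertrophic against dystrophic with libraries exchanged, and Hbb-bs to Hbb-bt in hypertrophic against dystrophic to −0.016 with medians and −0.60 in the lower title numbers. The mean hypertrophic share became 7.41% with libraries exchanged. Per window in place of exon length, alpha to beta became 2.02 (from 0.647) and Hba-a1 to Hba-a2 became 2.32 (from 1.80). All 18 alternative correlations kept their direction and call.

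The number of genes called in dystrophic against WT, hypertrophic against WT and hypertrophic against dystrophic was 1, 2 and 1 with edgeR and 1315, 1528 and 323 with DESeq2. It was 0 in all 3 with no filter beyond 1 read and 0, 0 and 1 without mitochondrial genes. It was 2, 2 and 0 with libraries exchanged, 3, 3 and 0 with the 9 matching libraries, and 6, 2 and 2 in the lower title numbers. Without TMM it was 3 in dystrophic against WT, and in the higher title numbers 4 in hypertrophic against dystrophic. The 27227 reads of WT replicate 1 limit what the WT condition can show. No paired analysis was possible because the replicate numbers only name the libraries.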
